A study of Mus musculus with 4 samples.

Results

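The mouse immunoglobulin heavy variable (Ighv) segments described here were chosen by symbol and by a mean of at least 10 normalized counts over the 4 libraries. They are 83 of the 16673 genes in the deposited table. All 83 Ighv genes of the table passed, so none lay just outside the minimum, and the lowest inside it were Ighv1-55 and Ighv1-47 with means of 10.6 and 10.7. The mean covers both groups: 65 segments had a mean of at least 10 in the control libraries alone, and the other 18 entered through the level in the other group, so counts over the members are descriptions. The RNA came from lineage-negative (Lin–) bone marrow, the cells that remain once those with markers of mature blood lineages have been removed, of mice aged 2 months. In the group labelled control, 2 mice carried floxed Tet3 alleles without Cre (Tet3F/F). In the group labelled cKO, 2 mice carried the same floxed alleles with a Tie2 Cre allele (Tie2+/cre; Tet3F/F). All 4 mice therefore carried floxed Tet3, which encodes an enzyme that oxidises 5-methylcytosine in DNA. Tie2 (Tek) is active in endothelial cells and in the early cells that give rise to blood, so Cre was not restricted to B cells. Neither strain nor sex of the mice is stated in the labels. A normalized count is the number of reads counted to a gene divided by a size factor for the library.

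The heavy chain variable domain of an antibody is assembled in developing B cells by joining a variable (V), a diversity (D) and a joining (J) segment on chromosome 12. Each B cell keeps a single productive V choice, so the mixture of V transcripts in a sample reflects which B lineage cells it holds and how much heavy chain RNA each makes. Plasma cells, the antibody-secreting end of the lineage, carry far more immunoglobulin RNA per cell than B cell precursors. V segments are grouped into families by sequence: families Ighv5 and Ighv2 lie mostly towards the D segments, and the large family Ighv1, with Ighv8 among it, lies towards the far end of the locus. Class switching replaces the constant region (Ighm to Ighg or Igha) behind the same V segment.

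GENCODE M21 (GRCm38) lists 183 heavy V segments, 113 as genes, 69 as pseudogenes and 1 in neither class, in families numbered from 1 to 16. The 83 members covered 13 families, 73 as genes and 10 as pseudogenes, and families 13, 15 and 16 had no member. Their annotated transcripts were 329 to 480 bases long (median 353). By local alignment the median identity of a member to its nearest annotated segment was 95.4% (range 84.4 to 98.9), and 51 of 83 had a neighbour of at least 95%. Reads were counted to single segments, so how far a segment's value can be told from that of its relatives depends on where they differ. The most abundant segment of 3 families is printed beside a relative over the same stretch, and so is a pair with only 2 mismatches. Each window of 150 or 151 bases lies at or near the 3′ end of the GENCODE transcript, 5′ to 3′ in the sense strand. Capitals mark bases that differ from the partner or have no partner.
Ighv3-2: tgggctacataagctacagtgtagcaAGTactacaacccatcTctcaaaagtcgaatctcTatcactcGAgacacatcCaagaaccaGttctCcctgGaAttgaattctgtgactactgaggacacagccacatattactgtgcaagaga
Ighv3-1: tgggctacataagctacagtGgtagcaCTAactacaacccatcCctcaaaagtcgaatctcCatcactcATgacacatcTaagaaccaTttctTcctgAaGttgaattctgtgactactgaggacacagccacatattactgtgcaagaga
Ighv5-17: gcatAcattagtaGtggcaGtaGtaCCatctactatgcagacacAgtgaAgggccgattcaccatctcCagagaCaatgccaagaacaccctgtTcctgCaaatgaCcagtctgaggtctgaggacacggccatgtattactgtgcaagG
Ighv5-15: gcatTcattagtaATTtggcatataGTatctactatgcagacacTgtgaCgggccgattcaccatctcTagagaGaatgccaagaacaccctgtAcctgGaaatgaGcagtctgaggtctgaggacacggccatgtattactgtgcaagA
Ighv2-9: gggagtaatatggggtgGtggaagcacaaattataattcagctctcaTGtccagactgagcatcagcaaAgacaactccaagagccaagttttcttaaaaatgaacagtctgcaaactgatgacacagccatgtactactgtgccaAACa
Ighv2-6-8: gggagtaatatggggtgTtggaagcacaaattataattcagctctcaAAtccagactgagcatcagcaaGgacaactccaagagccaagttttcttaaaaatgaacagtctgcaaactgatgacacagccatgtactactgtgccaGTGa
Ighv1-15: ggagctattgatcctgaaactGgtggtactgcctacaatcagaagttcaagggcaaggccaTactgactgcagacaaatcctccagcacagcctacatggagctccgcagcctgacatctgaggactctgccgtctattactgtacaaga
Ighv1-23: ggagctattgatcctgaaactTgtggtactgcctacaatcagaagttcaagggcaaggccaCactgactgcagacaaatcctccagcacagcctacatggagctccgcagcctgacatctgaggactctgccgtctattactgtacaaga

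Over these windows Ighv3-2 and Ighv3-1 had 12 mismatches, Ighv5-17 and Ighv5-15 also 12, Ighv2-9 and Ighv2-6-8 7, and Ighv1-15 and Ighv1-23 2. Reads were sequenced from both ends over 150 bases each, per the series' design text, and the treatment of reads that match several segments was not stated in the sources used here. Values of Ighv1-15 (74.8 and 100.5 normalized counts in control replicates 1 and 2, 288 and 140.2 in cKO replicates 1 and 2) and of Ighv1-23 (6.46, 0, 17.5 and 81.6) are therefore uncertain as to which of these near-identical copies the reads belong to. The same holds for the other 4 members with a relative of at least 98% identity (Ighv1-20, Ighv1-37, Ighv1-52 and Ighv11-2). Where both partners are members, their highest levels were not in the same library. These were cKO replicate 1 for Ighv1-15 and cKO replicate 2 for Ighv1-23, and control replicate 1 for Ighv1-20 and cKO replicate 2 for Ighv1-37. The nearest relatives of Ighv1-52 and Ighv11-2 (Ighv1-61 and Ighv11-1) are not members, so these could not be compared. The 6 members with a relative of at least 98% identity, and Ighv3-1, Ighv5-15 and Ighv2-6-8, were in part named after their values were seen.

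The libraries held 39199593 and 46673855 reads (control replicates 1 and 2) and 28845037 and 30020188 (cKO replicates 1 and 2). Heavy V reads were 9961, 2085, 13532 and 12936 of these, or 0.0254%, 0.00447%, 0.0469% and 0.0431% of the library. Control replicate 2, the library with the most reads in all, stood apart in more than heavy V reads. Mitochondrially encoded genes took 8.21% of its reads, against 0.993% to 1.27% in the others, and its 8 erythroid marker genes summed to 53747 normalized counts, against 3989 to 20025. The 7 measured neutrophil markers summed to 108418 there and to 298202 to 455176 elsewhere. The part of these differences in the results below was not tested, and values without control replicate 2 are given for the sums, the counts and many of the named segments. Xist was at 5.54 and 9.57 normalized counts in control and at 87442 and 48951 in cKO, so sex and genotype cannot be told apart. Tet3 itself had 5056 and 6593 in control and 6400 and 5084 in cKO. The labels do not name the floxed exons, and reads of the others are counted too, so these values are no check of the genotype.

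Summed over the 83 segments, heavy V transcripts reached 9197 and 1663 normalized counts in control replicates 1 and 2 and 15797 and 14862 in cKO replicates 1 and 2. Both cKO libraries lay above both control libraries and close to each other, while the control libraries lay far apart. The group means were 5430 ± 5327 (SD, n = 2) and 15329 ± 661 (SD, n = 2), a 2.82-fold ratio, with an exact permutation p of 0.333 (two-sided), the smallest that 2 libraries against 2 allow. Without control replicate 2 the log2 ratio of the sums was 0.74, against 1.5 with it. In bulk RNA, fewer B lineage cells and less immunoglobulin RNA per cell cannot be told apart.

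The kappa light chain V segments followed the same order of libraries. The 80 kappa V segments, which supply the variable domain of most mouse light chains, summed to 15770, 3171, 28003 and 25942, a 2.85-fold ratio of the group means (1.71-fold against control replicate 1 alone). Heavy V reads per 100 kappa V reads were thus 58.3, 52.4, 56.4 and 57.3 in the same order, nearly level. The 3 lambda V segments are not described here. Of 4 light chain constant genes, 1 (Igkc) had both cKO libraries above both control libraries, against 19.2% of all genes. The lambda constant genes overlapped between groups. Iglc1 had 1571 and 741 in control and 1087 and 2255 in cKO, Iglc2 884 and 569 against 872 and 1680, and Iglc3 211 and 158 against 154 and 435. The summed constant genes and the summed J segments of the heavy chain locus varied less between libraries than the summed V segments. This did not hold for each constant gene: Ighg2b ranged from 1287 normalized counts in control replicate 2 to 15837 in cKO replicate 2. Heavy V reads per 100 constant region reads were 13.4 and 5.55 in control and 17.9 and 14.7 in cKO, lowest in control replicate 2. The heavy J segments summed to 388 and 216 in control and to 656 and 507 in cKO.

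**Figure D1:**
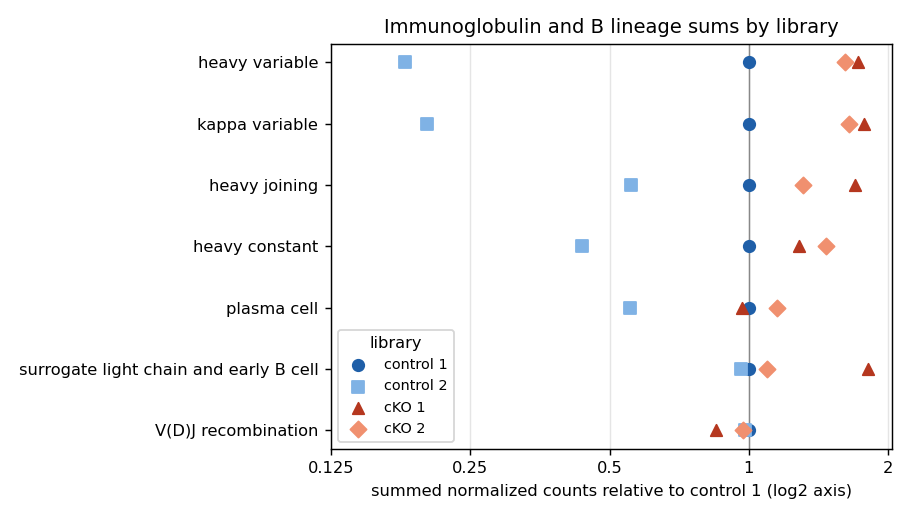
Summed normalized counts of gene groups (rows) in each library, divided by control replicate 1, on a log2 axis; each symbol is a library. Control replicate 2 sits far to the left for heavy V (1663 against 9197) and kappa V (3171 against 15770). The gap is smaller for the heavy constant genes (29966 against 68806). For the V(D)J recombination genes control replicate 2 sits near control replicate 1 (67519 against 68876). Most of that sum came from Hmgb1 (24180 against 25212) and Hmgb2 (32134 against 33026). Single genes of the list differed in both directions, such as Rag1 (191 against 81.2) and Xrcc4 (251 against 466).

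The constant genes show which antibody classes these V transcripts could belong to. Igha (IgA) took the most reads of them in every library, with 38583 and 17225 normalized counts in control and 49058 and 56323 in cKO. Its share of heavy constant reads was nearly level at 56.1%, 57.5%, 55.7% and 55.7%. Ighm (IgM) varied little in level, at 11218, 7611, 10642 and 10363, and its share was 16.3% and 25.4% in control and 12.1% and 10.2% in cKO. Ighg2c, the IgG2c gene, had 5594 and 1081 in control and 12557 and 12520 in cKO (log2 fold change 2.35, SE 0.64, and 1.16 without control replicate 2), with no overlap between groups. All 8 heavy constant genes were above 0 in log2 fold change and 6 had both cKO libraries above both control libraries, which 19.2% of all genes had, but limma, edgeR and DESeq2 called 0 of them (3 had a limma unadjusted p under 0.05, the smallest 0.007 for Ighg2c). Their median log2 fold change was 1.0, and 0.47 without control replicate 2. Together the switched classes made up 83.6%, 74.2%, 87.8% and 89.6% of heavy constant reads.

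Segment by segment, 0 of 83 heavy V segments passed limma (Benjamini-Hochberg adjusted p under 0.05 over 16598 genes), where 0.0301% of all genes passed as higher in cKO. The smallest adjusted p was 0.66, and 34 segments had an unadjusted p under 0.05, all of them higher in cKO. edgeR on the recovered reads also called 0, with 19 at an unadjusted p under 0.05. The share of all genes at an unadjusted p under 0.05 is not given here, so such counts, also for the gene lists, are descriptions. DESeq2 called 4 as higher (4.82% of the members, against 0.446% of all genes): Ighv1-9, Ighv2-9-1, Ighv5-17 and Ighv9-4. It gave no adjusted p for 6 segments. The log2 fold change on the scale of log2(normalized count + 1) was above 0 in 79 of 83 segments, with a median of 2.18 against 0.01 over all genes. It was at least 1 in 69 of 83 (83.1%), against 6.54% of all genes, and -1 or lower in 1. Both cKO libraries were above both control libraries in 45 segments (54.2%), against 19.2% of all genes, and below both in 0.

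These counts rest in large part on control replicate 2, which had the lowest value in 74 of the 83 segments and the highest in 0. It had no read for 32 segments, which allows each a share of up to 0.144% of its heavy V reads, and at most 3 reads for 36. Without it the median log2 fold change was 0.63, with 61 segments above 0, 32 at 1 or higher (38.6%, against 6.77% of all genes) and 8 at -1 or lower. Both cKO libraries were above control replicate 1 in 46 segments (55.4%), against 34.6% of all genes. Without control replicate 1, in turn, limma called 37 segments as higher (44.6%), against 1.4% of all genes. The 4 libraries had 11 (control replicate 1), 0 (control replicate 2), 39 (cKO replicate 1) and 33 (cKO replicate 2) segments at their highest value.

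**Figure D2:**
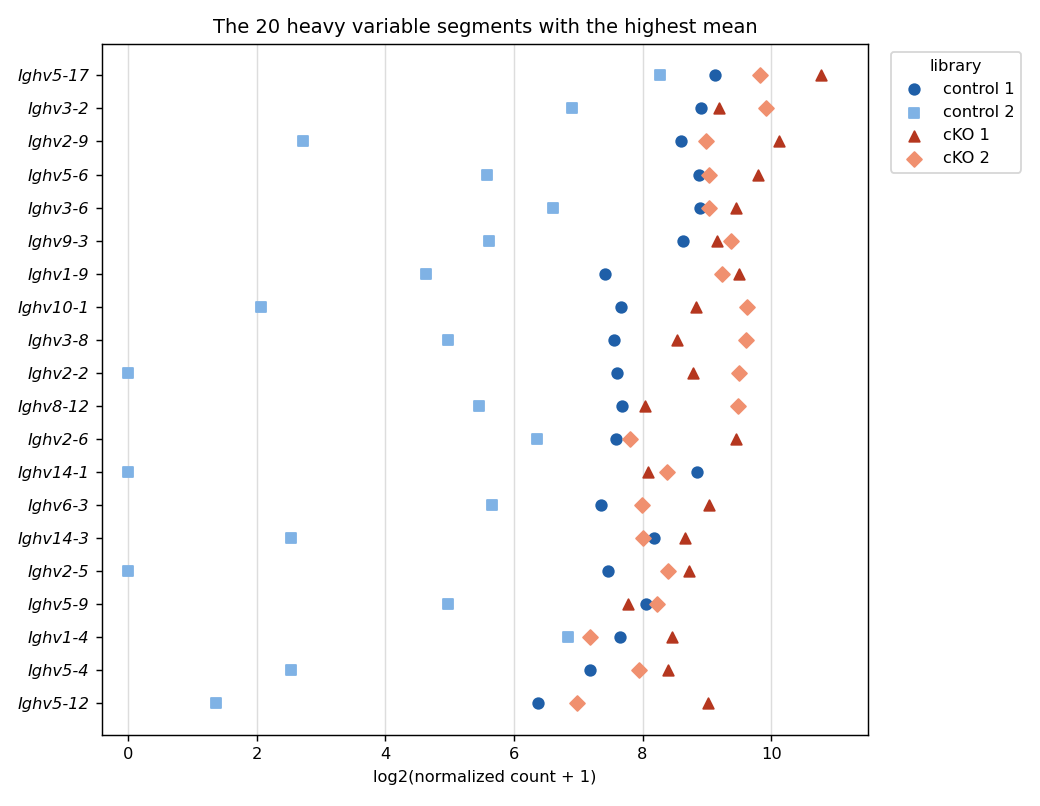
Level of the 20 segments with the highest mean, in log2(normalized count + 1), in each library. Control replicate 2 lies at the left in 20 of 20 lines, at 0 for Ighv2-2, Ighv14-1 and Ighv2-5, while control replicate 1 overlaps the cKO libraries in some lines, such as Ighv14-1 (460.7 against 269.7 and 332 normalized counts).

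The 5 segments with the smallest limma p-values were Ighv2-9-1, Ighv1-9, Ighv9-4, Ighv5-17 and Ighv1-42, all higher in cKO with no overlap between the groups. Ighv9-4 had 35.1 and 40.7 normalized counts in control and 153 and 138 in cKO. Its control libraries agreed, control replicate 2 being the higher, and both cKO libraries were far above both: the log2 fold change was 1.91 (SE 0.46; limma with Benjamini-Hochberg adjusted p 0.67, DESeq2 adjusted p 0.032). Leaving out each library in turn gave values of 1.81 to 2.02. Ighv1-9 had 169 and 23.9 in control and 724 and 602 in cKO. Both cKO libraries lay above both control libraries (3.34, SE 0.79; limma adjusted p 0.66, DESeq2 adjusted p 0.012), and without control replicate 2 the difference was 1.96. Ighv2-9-1 had 27.7 and 10.4 in control and 104 and 156 in cKO (2.83, SE 0.65; DESeq2 adjusted p 0.017), and the difference was 2.16 without control replicate 2. Ighv1-42 had 1.85 and 0 in control and 42.0 and 25.3 in cKO, so its difference of 4.32 (SE 1.15) compares 2 and 0 reads with 36 and 22.

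Family by family, Ighv5 and Ighv2 hold the segments nearest to the D segments. In Ighv5 (8 members), Ighv5-17 was the most abundant heavy V segment per kilobase of transcript, with 2177 normalized counts per kilobase over the 4 libraries. It had 557 and 309 normalized counts in control and 1758 and 903 in cKO. The groups did not overlap, but the cKO libraries differed more from each other than cKO replicate 2 did from control replicate 1 (log2 fold change 1.60, SE 0.40; limma adjusted p 0.71, DESeq2 adjusted p 0.024; 1.18 without control replicate 2). Ighv5-6 had 472 and 47.1 in control and 888 and 525 in cKO, so control replicate 1 and cKO replicate 2 nearly met. Ighv5-12 was led by a single library: 516 in cKO replicate 1 against 82.2, 1.60 and 125 in control replicates 1 and 2 and cKO replicate 2. Ighv5-2, the D-proximal segment that early B cell progenitors are known to rearrange often, was low throughout at 12.9, 0, 47.9 and 16.1 (named after its values were seen).

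In Ighv2 (7 members), Ighv2-9 had 386 and 5.58 normalized counts in control and 1117 and 508 in cKO. The difference of 3.90 (SE 1.58) was 0.96 without control replicate 2. Ighv2-2 had 194 and 0 in control and 439 and 720.3 in cKO, with both cKO libraries above control replicate 1 as well (1.53 without control replicate 2). Ighv2-6 had 191 and 81.4 in control and 698 and 223 in cKO; here control replicate 1 and cKO replicate 2 lay close together. As a family Ighv2 took 13.9% and 6.76% of heavy V reads in control and 18.9% and 14.5% in cKO, higher in both cKO libraries.

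Families Ighv3 and Ighv9 hold 3 of the 5 segments that were among the 10 with most reads in every library. In Ighv3 (5 members), Ighv3-2 had 480.1 and 119 normalized counts in control and 581 and 964 in cKO. It was the top segment of cKO replicate 2, and its groups did not overlap (1.64, SE 0.61; limma adjusted p 0.76), with a difference of 0.64 without control replicate 2. Ighv3-6 had 474 and 96.5 in control and 697 and 525 in cKO, and Ighv3-8 had 187 and 30.3 in control and 370.1 and 780.1 in cKO. The relative printed beside Ighv3-2, Ighv3-1, was much lower at 24.9, 3.19, 37.4 and 46.0; per kilobase over the 4 libraries the means were 1536 for Ighv3-2 and 79.6 for Ighv3-1. In Ighv9 (3 members), Ighv9-3 had 395 and 47.9 in control and 567 and 664 in cKO. Ighv9 held nearly the same share of heavy V reads in every library, 5.52% and 5.47% in control and 5.82% and 5.88% in cKO.

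In Ighv14, 0 of the 4 members had both cKO libraries above both control libraries, which 19.2% of all genes had. The count was also 0 in Ighv4, Ighv11 and Ighv12. Ighv14-1 had 460.7 and 0 normalized counts in control and 269.7 and 332 in cKO, so it was highest in control replicate 1 and without a read in control replicate 2. Its fitted difference of 3.80 (SE 2.33) turned to -0.62 without control replicate 2. Ighv14-3 had 287 and 4.79 in control and 404 and 255 in cKO, again with control replicate 1 inside the cKO range. The family took 9.72% of heavy V reads in control replicate 1, 1.01% in control replicate 2, and 5.26% and 4.78% in cKO. No difference of this family from the others was tested.

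Ighv1 was the largest family, with 40 members. Its lead segment Ighv1-9 is described above, and 36 of 40 members had a log2 fold change above 0. The other 4 were the only members of any family below 0. Ighv1-69 had 255 and 126 in control and 273 and 40.2 in cKO, Ighv1-14 had 246 and 13.6 against 7.0 and 91.9, Ighv1-20 had 58.2 and 9.57 against 10.5 and 32.2, and Ighv1-18 had 110 and 19.1 against 49.0 and 28.7. In each of these the groups overlapped, and the difference changed sign when a library was left out. The 2 segments nearest the minimum mean were also in Ighv1: Ighv1-47 had 24.0, 0, 16.3 and 2.30, and Ighv1-55 had 7.39, 7.18, 21 and 6.89.

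Family Ighv8 (5 members) was led by Ighv8-12, with 204 and 43.1 normalized counts in control and 261 and 712 in cKO. Ighv8-4 was found almost only in cKO replicate 2, at 96.5 against 7.39, 0 and 0 in control replicates 1 and 2 and cKO replicate 1. In Ighv10 (2 members), Ighv10-1 had 201 and 3.19 in control and 455 and 787 in cKO, and Ighv6-3 of family Ighv6 had 163 and 49.5 in control and 525 and 254 in cKO. Both had cKO libraries above control. Families Ighv4, Ighv7, Ighv11 and Ighv12 together gave 7 members, and all 7 were without a read in control replicate 2. Ighv7-1, of a family known for antibodies to phosphorylcholine, had 127 in control replicate 1 and 124 and 378 in cKO, and Ighv4-2 had 172, 72.4 and 216. Ighv11-2, used by B-1 cells that bind phosphatidylcholine, had 39.7, 14 and 40.2, and Ighv12-2 had 38.8, 32.7 and 88.5. In these segments control replicate 1 lay within the range of the cKO libraries.

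Shares of the heavy V reads within a library do not depend on its size factor. Ighv1 took 25.2% (Wilson 95% interval 24.3 to 26.0) and 40.7% (38.6 to 42.8) in control replicates 1 and 2, and 20.4% (19.7 to 21.1) and 21.9% (21.2 to 22.7) in cKO. Ighv5 took 17.6% and 23.6% in control and 25.4% and 15.6% in cKO, so it varied as much within as between groups. Ighv3 took 12.9% and 15% in control and 10.7% and 15.7% in cKO. The difference of group means, cKO minus control, was -11.8 percentage points for Ighv1, 6.38 for Ighv2, 3.01 for Ighv10 and 0.355 for Ighv9. In these 4 of the 13 families the groups did not overlap (exact permutation p 0.333 in each, the smallest possible). That value is also the share of all arrangements of 2 libraries against 2 that give no overlap, so the count of families is a description. For Ighv1 and Ighv2, control replicate 1 lay nearer to the cKO libraries than to control replicate 2.

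**Figure D3:**
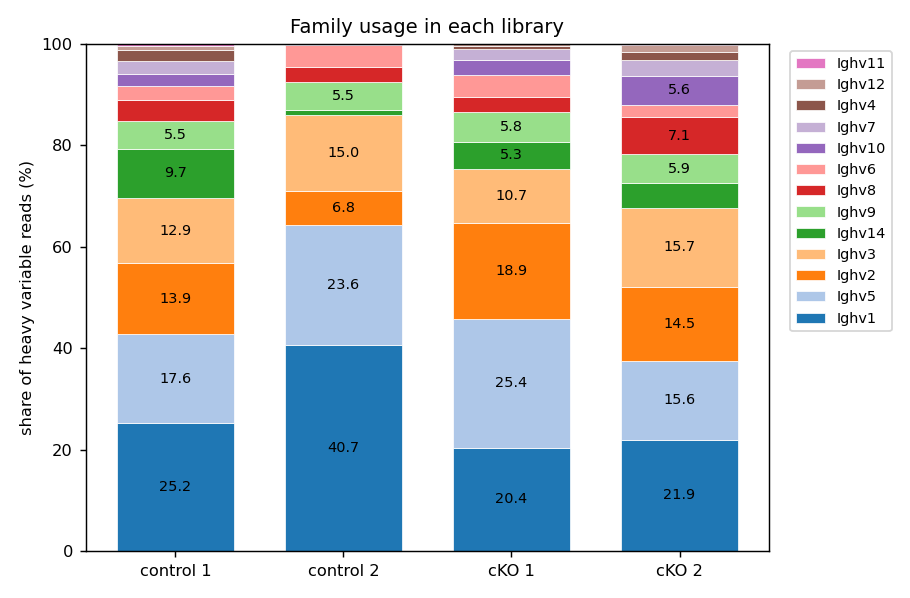
Share of heavy V reads (percent) taken by each family in each library, stacked to 100. Family Ighv1 is the largest in 3 libraries, at 40.7% in control replicate 2, while Ighv5 is the largest in cKO replicate 1 with 25.4%; the smallest families are missing from control replicate 2.

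Over the members, the repertoire was broad in 3 libraries and narrower in control replicate 2. Ighv5-17 was the top segment in control replicate 1 (603 reads, 6.05%, Wilson 95% interval 5.60 to 6.54), control replicate 2 (388 reads, 18.6%, 17.0 to 20.3) and cKO replicate 1 (1506 reads, 11.1%, 10.6 to 11.7). Ighv3-2 was the top segment in cKO replicate 2 (839 reads, 6.49%, 6.07 to 6.92). These intervals cover counting error only. The 10 most abundant segments took 43.8% and 65.6% of heavy V reads in control and 51.1% and 48.3% in cKO. The effective number of segments, the inverse of the summed squared shares, was 35.0 and 15 in control and 25.8 and 31.8 in cKO. Control replicate 1 was thus the most even library and control replicate 2 the most concentrated, with both cKO libraries between them.

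**Figure D4:**
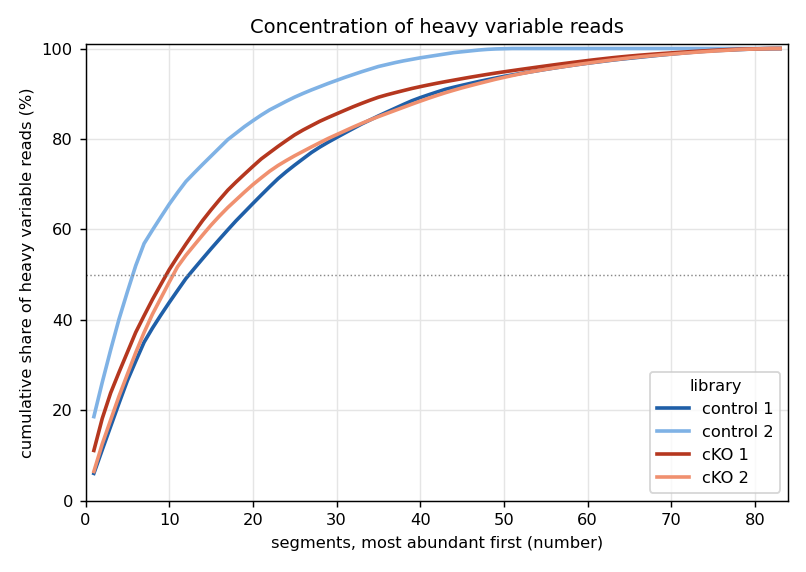
Cumulative share of heavy V reads (percent) against the number of segments counted from the most abundant, for each library, with a dotted line at 50%. The line for control replicate 2 climbs fastest and crosses 50% at 6 segments, against 13 in control replicate 1 and 10 and 11 in the cKO libraries.

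Of the members, control replicate 2 detected fewer than the other libraries would at its read number. At its 2085 heavy V reads it detected 51 segments. The number expected for 2085 reads drawn from the other libraries was 80.5 (control replicate 1), 79.1 (cKO replicate 1) and 80.5 (cKO replicate 2). The members were chosen by a mean over all libraries, and control replicate 2 gave the fewest heavy V reads. Every gene of the table had at least 41 reads in all. Segments found mainly in control replicate 2 could therefore be missing, and the part of this in its lower number was not tested. The kappa V segments had an effective number of 37.2 and 25.7 in control and 30.5 and 32.2 in cKO, again highest in control replicate 1 and lowest in control replicate 2. Ighv3-2, Ighv3-6, Ighv5-6, Ighv5-17 and Ighv9-3 were among the 10 most abundant heavy V segments of all 4 libraries. Across the 83 segments, Spearman's rho between libraries was 0.72 and 0.80 for control replicate 1 with cKO replicates 1 and 2 and 0.76 between the cKO libraries. It was 0.49 between the control libraries, and 0.45 and 0.38 for control replicate 2 with the cKO libraries. Segments of a library share its reads and depth, so no p is given.

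Position along the locus was not used to choose the members. The annotated segments were divided by order into 4 equal stretches, and the stretch next to the D segments held 24 members, which took 50.5% and 38.8% of heavy V reads in control and 55.0% and 45.9% in cKO. The farthest stretch held 19 members with 12.5% and 21.1% in control and 9.44% and 14.7% in cKO. Shares of both stretches overlapped between groups. The second stretch took 29.9% and 29.4% in control and 29.5% and 32.6% in cKO, also overlapping. The third took 7.06% and 10.8% in control and 6.09% and 6.80% in cKO, without overlap (exact permutation p 0.333, the smallest possible). The median mean level per kilobase was 431 normalized counts in the nearest stretch, then 249.9, 75.2 and, in the farthest, 98.8. The median log2 fold change was 2.97, 1.91, 2.37 and 1.76 in the same order, above 0 in each of the 4. Without control replicate 2 these medians were 0.86, 0.46, 0.40 and 1.08.

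**Figure D5:**
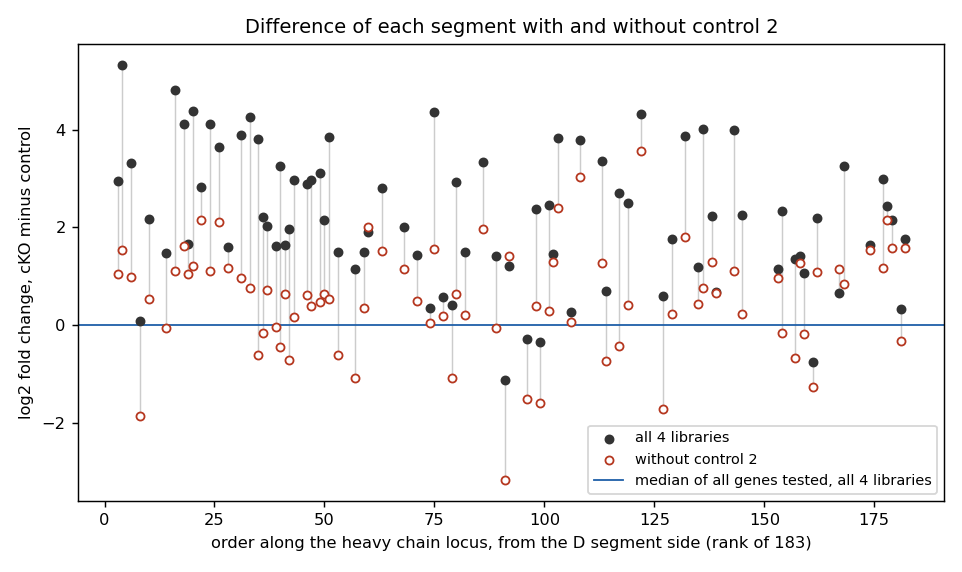
Log2 fold change (cKO minus control) of each of the 83 segments against its order along the locus from the D segment side, with all libraries (filled) and without control replicate 2 (open); the line is the median of all genes, 0.01. Without control replicate 2, 72 points lie nearer to 0 and 11 farther from it, and the median is 0.63 against 2.18.

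Segments annotated as pseudogenes also gave reads. The 10 pseudogene members took 11.2% and 9.35% of heavy V reads in control and 5.37% and 10.6% in cKO, and without Ighv3-2 the other 9 took 6.0%, 2.21%, 1.69% and 4.14%. In their GENCODE transcripts 0 of these 10 had a reading frame of at least 300 bases from an ATG to the transcript's end without any stop. Of the 73 gene members 72 had such a frame (the other was Ighv1-67). The longest frame of Ighv3-2 ended in a stop after 300 bases, short of the end of its 349 base transcript. That of Ighv1-73 ended in a stop after 321 of 352 bases. In Ighv1-2 the longest frame ran over 375 of 378 bases, so its stop was the last codon of the transcript. RefSeq also calls 10 members pseudogenes, 8 of them shared with GENCODE: it adds Ighv7-1 and Ighv7-3 and leaves out Ighv1-14 and Ighv1-73. The transcripts are those of the reference strain, and the strain of these mice is not stated.

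The V segments were set beside lists of other B lineage genes. Of 12 genes of V(D)J recombination, the machinery that cuts and joins the segments, limma, edgeR and DESeq2 called 0, and 0 had a limma unadjusted p under 0.05 (median log2 fold change 0.07). In 3 of the 12 both cKO libraries were above both control libraries, a share near the 19.2% of all genes. Rag1, which cuts at the segments, had 81.2 and 191 normalized counts in control and 388 and 73.5 in cKO, and Dntt, which adds bases at the joints, had 2903 and 3642 in control and 5824 and 3650 in cKO. Among 11 regulators of the heavy chain locus the median was also 0.07 with 0 called. Of 11 measured genes of early B cells and the surrogate light chain, 10 were above 0 and 0 were called (median 0.83, and 0.85 without control replicate 2). In 5 of the 11 both cKO libraries were above both control libraries, against 19.2% of all genes: Blnk, Igll1, Il7r, Pax5 and Vpreb3. Pax5, the B lineage identity factor, had 7.39 and 11.2 in control and 194 and 14.9 in cKO, so it was high in cKO replicate 1 alone, where Igll1, a surrogate light chain gene, was also highest (20.3, 0, 112 and 20.7).

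The sum of the 10 plasma cell markers overlapped between the groups, at 30519 and 16909 normalized counts in control and 29495 and 35109 in cKO. By gene, 8 of 10 had a log2 fold change above 0 (median 0.75) and 5 had both cKO libraries above both control libraries, against 19.2% of all genes: Jchain, Irf4, Sdc1, Tnfrsf17 and Derl3. limma, edgeR and DESeq2 called 0 of the 10 (3 at a limma unadjusted p under 0.05), and the median was 0.41 without control replicate 2. Jchain, the chain that joins IgA and IgM into polymers, had 10558 and 5417 in control and 14444 and 17512 in cKO. Xbp1, the factor of the secretory program, had 8188 and 4793 in control and 5375 and 6575 in cKO, so control replicate 1 was the highest. Control replicate 2 was thus the lowest library for plasma cell markers and heavy constant genes as it was for the V segments. The 5 measured mature B cell markers summed to 799 and 868 in control and 1080 and 1028 in cKO. Their median log2 fold change was -0.15, and 0.21 without control replicate 2. The 10 T cell markers summed to 1324 and 2213 in control and 5129 and 3720 in cKO, with a median log2 fold change of 1.56 (2.00 without control replicate 2). In 9 of 10 both cKO libraries were above both control libraries, against 19.2% of all genes. limma and edgeR called 0 of them (8 at a limma unadjusted p under 0.05). DESeq2 called 3 as higher, against 0.446% of all genes: Cd3g (adjusted p 0.003), Cd28 (0.011) and Trbc2 (0.024). Of 8 NK cell markers, 6 had both cKO libraries above both control libraries, against 19.2% of all genes. The median over the 8 was 1.41 (1.61 without control replicate 2). limma and edgeR called 0 of these (5 at a limma unadjusted p under 0.05). DESeq2 called Klrb1c (adjusted p 6.12e-08) and Il2rb (0.000333), both higher, again against 0.446% of all genes. The part of T and NK cells in the heavy V result was not tested.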

How the data were processed

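Total RNA of Lin– marrow was sequenced from 4 mice, 2 per genotype. Each gene has a signal deposited by the authors, its reads divided by a DESeq2 size factor of the library, per the table's name and the submitters' processing notes. These notes also name Trim Galore 0.6.7, STAR 2.7.9a, featureCounts and SAMtools and build mm39. Strand and multi-mapping settings were not stated there. The control columns are headed as wild type and were matched to the control samples by group and number. Every value was a whole multiple of the worth of a read (100%, tolerance 0.1 read), and dividing gave back the reads (size factors 1.08, 1.25, 0.857 and 0.870). Replicate labels name separate mice but no litter or day, and same-numbered libraries did not deviate together (correlation -0.07 over all genes).

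The members, gene lists and tests were chosen with earlier results of these data known. limma 3.58.1 (R 4.3.3) was fitted to log2(normalized count + 1) for 16598 genes with a mean of at least 10, empirical Bayes with a trend, two-sided, Benjamini-Hochberg adjusted, threshold 0.05. On the recovered reads, DESeq2 1.42.0 used its Wald test and edgeR 4.0.16 its quasi-likelihood test with TMM. The steps were tested on simulated data. Other alternatives were pseudocounts of 0.5 and 10, other filters, TMM or quantile scaling, no trend, a replicate block and each library left out. Added after seeing the data were values without pseudogenes, per kilobase, over members above 3 reads, at equal read number, and counts, lists and locus stretches without control replicate 2. Shares carry Wilson 95% intervals (statsmodels 0.14.6). A 0 was given a limit of 3 reads.

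Named segments were the 15 with the highest mean, the lead of each family, the top of each library, the 5 smallest limma p-values per direction, those led by 1 library (at least 4 times the next), and those nearest the minimum mean. All constant genes and up to 3 genes of each other list could be named; Igll1, Pax5 and the list genes named for DESeq2 calls or for not overlapping were chosen after their values were seen. Sequences and lengths come from GENCODE M21 and the order along the locus from RefSeq for GRCm38, both by symbol (83 of 83 matched in each). Because GRCm38 differs from the build used for the reads, coordinates are left out. Identities used Biopython 1.88 alignments of at least 250 columns.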

Additional observations from a re-analysis of the deposited data

How the results depend on the processing

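The count of heavy V segments that passed was 0 with limma under both other pseudocounts, both other filters, TMM and quantile scaling and no trend, and 0 with edgeR, but 4 with DESeq2. Leaving out each library in turn gave 0 to 37 (37 without control replicate 1). With a replicate block the count was 0 and the median log2 fold change 2.18, and no named segment changed its call; the numbers share only a label. The median stayed above 0 in all alternatives, between 0.63 (control replicate 2 left out) and 3.50 (control replicate 1 left out), with 1.68 under quantile scaling, 1.42 with a pseudocount of 10 and 1.49 over the 47 members above 3 reads in every library. Leaving out each library in turn moved the log2 ratio of the sums from 0.74 to 3.20. Without the most abundant segment of each library, the difference in share was -5.11 percentage points for Ighv3 and 7.11 for Ighv5, because different segments were removed from the libraries. Among 31 named segments, Ighv1-47 changed sign with a pseudocount of 10 (-0.035), quantile scaling (-0.39), edgeR (-0.34) and DESeq2 (-0.36); the cause was not tested. Leaving out single libraries moved Ighv1-14 from -3.18 to 0.91, Ighv1-18 from -1.52 to 0.94, Ighv1-20 from -1.60 to 0.89, Ighv1-47 from -1.73 to 2.92, Ighv1-55 from -0.069 to 1.41, Ighv1-69 from -2.13 to 0.60, Ighv11-2 from -0.71 to 4.64, Ighv14-1 from -0.62 to 8.23, Ighv4-2 from -0.45 to 6.98 and Ighv8-4 from -1.53 to 5.07. There were 2 mice per group, and 32 members had no read in control replicate 2, so fold changes of these depend on the pseudocount.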

Other observations

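Against control replicate 1 alone, the families did not all lie on the same side. The mean summed level of the cKO libraries was 2.93 times that of control replicate 1 for Ighv10. The same ratio was 2.06 for Ighv8, 2.03 for Ighv6, 2.01 for Ighv2 and 1.95 for Ighv5. It was 1.40 times for Ighv1, and below that of control replicate 1 for Ighv14 (0.862), Ighv4 (0.847) and Ighv11 (0.683). Over segments, 7 of 8 members of Ighv5 and 6 of 7 of Ighv2 had a log2 fold change above 0 without control replicate 2, against 1 of 4 in Ighv14 and 0 of 2 in Ighv4. These are values against a single control library, with no test.

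The cKO libraries also differed from each other in which segments they held. Ighv5-12 had 516 normalized counts in cKO replicate 1 and 125 in cKO replicate 2, and Ighv2-6 had 698 and 223. The reverse held for Ighv8-12 (261 and 712), Ighv3-8 (370.1 and 780.1) and Ighv8-4 (0 and 96.5). The summed level of all 83 segments in the same libraries was 15797 and 14862.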
